A study of Mus musculus with 10 samples.

Results

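The genes described here encode 4 STAT transcription factors (Stat2, Stat3, Stat5a and Stat6) and 5 proteins that restrain signalling through them. The genes of those 5 are the SOCS-family genes Socs1, Socs2, Socs3 and Cish and the tyrosine phosphatase gene Ptpn1. All 9 genes were taken by name from the probes that are not controls. All 9 were measured, out of 18051 genes with a measured probe. A probe counted as measured where both arrays of 1 or more groups showed it well above background. The 9 genes carry 15 probes in 33 spots, 12 of the probes passed this filter, and 0 spots were saturated. Of the 9 genes, 8 were well above background on all 10 arrays. Socs2 was the exception.

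RNA was measured in RAW264.7, an established mouse macrophage-like cell line, on 10 single-colour Agilent arrays in 5 groups of 2. The glucocorticoids were dexamethasone (Dex), fluticasone furoate (FF), and the compounds VSG22 and VSGC12, each given at 100 nM. EtoH is the group without glucocorticoid. Per the labels, a glucocorticoid was given 1 hour ahead of lipopolysaccharide (LPS, a bacterial cell-wall component) at 1 µg/ml for 16 hours. Whether EtoH cells also received LPS is not stated in the labels, and every comparison with EtoH carries that limit. No group is described as free of LPS. Nothing says that the 2 replicates of a group were separate cultures, so p-values measure the spread between these samples, which may be technical. VSG22 and VSGC12 are known here only by their code names.

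When a cytokine binds its receptor, JAK kinases attached to the receptor phosphorylate STAT proteins, which pair up, enter the nucleus and switch on target genes. Among those targets are SOCS genes, whose proteins bind receptors or JAKs and shut the signal down, while phosphatases such as PTP1B, the product of Ptpn1, remove the phosphates. In macrophages exposed to LPS the pathway is driven largely by cytokines that the cells secrete, interferon beta among them. Glucocorticoids act through the glucocorticoid receptor, itself a transcription factor, and are used to damp inflammation. The arrays measure RNA, so phosphorylation of the STAT proteins was not analysed here.

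All values below are log2 processed signals relative to the array's own 75th percentile, and all changes are differences of these. Every probe has its own response, so the level of a gene is not set against that of another. The percentile that was subtracted, taken over probe averages, ran from 315.3 to 428.5 as a signal. Over spots, which was not used for scaling, the array's 75th percentile of processed signal ran from 375.1 to 536.8. Replicates correlated across genes with r between 0.982 and 0.995, and the SD of their difference was 0.63 in Dex and 0.33 to 0.41 in the other groups. Between 40.1% and 44.4% of spots were well above background. The precision is limited by the number of arrays. The replicates of a group lay on 2 slides, and each slide held all 5 groups, so changes are also given within slides. Of 8 macrophage markers, all 8 were well above background on every array, with a summed linear signal of 717 to 801 times the 75th percentile in the glucocorticoid groups and 647 to 651 times in EtoH. The 3 B cell markers and 4 epithelial markers were well above background on no array. Of 4 T cell markers, 2 were so on every array (summed 38.1 to 113 in the glucocorticoid groups, 25.1 to 26.4 in EtoH), and Cd8a was on none. Of 4 neutrophil and mast cell markers 2 were so on every array, as was 1 of 4 fibroblast markers. Summed over 3 measured genes, the neutrophil and mast cell signal was 38.0 to 137 in the glucocorticoid groups and 30.6 to 39.5 in EtoH. Summed over 2 measured genes, the fibroblast signal was 0.27 to 0.53 in the glucocorticoid groups and 0.31 to 0.37 in EtoH. The part of these markers in the results was not tested.

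Averaged over the 4 glucocorticoids, Ptpn1 was higher than in EtoH, Stat2, Cish and Stat3 were lower, and the other 5 genes did not pass the test. The fit was limma's over all genes, with Benjamini-Hochberg adjustment and a threshold of 0.05. Thus 4 of 9 genes were called, 1 higher and 3 lower, against 44.2% of all 18028 genes tested, 21.6% higher and 22.5% lower. The share of the 9 is near that background, so the count itself sets these genes apart from no others. Of the 9 genes 5 did not overlap between the glucocorticoid arrays and EtoH, 1 above and 4 below, against 47.6% of all genes, 22.9% above and 24.7% below. The median change of the 9 was -0.20, against -0.004 over all genes. In a culture measured as a whole, fewer cells of a kind and less RNA per cell cannot be told apart.

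**Figure D1:**
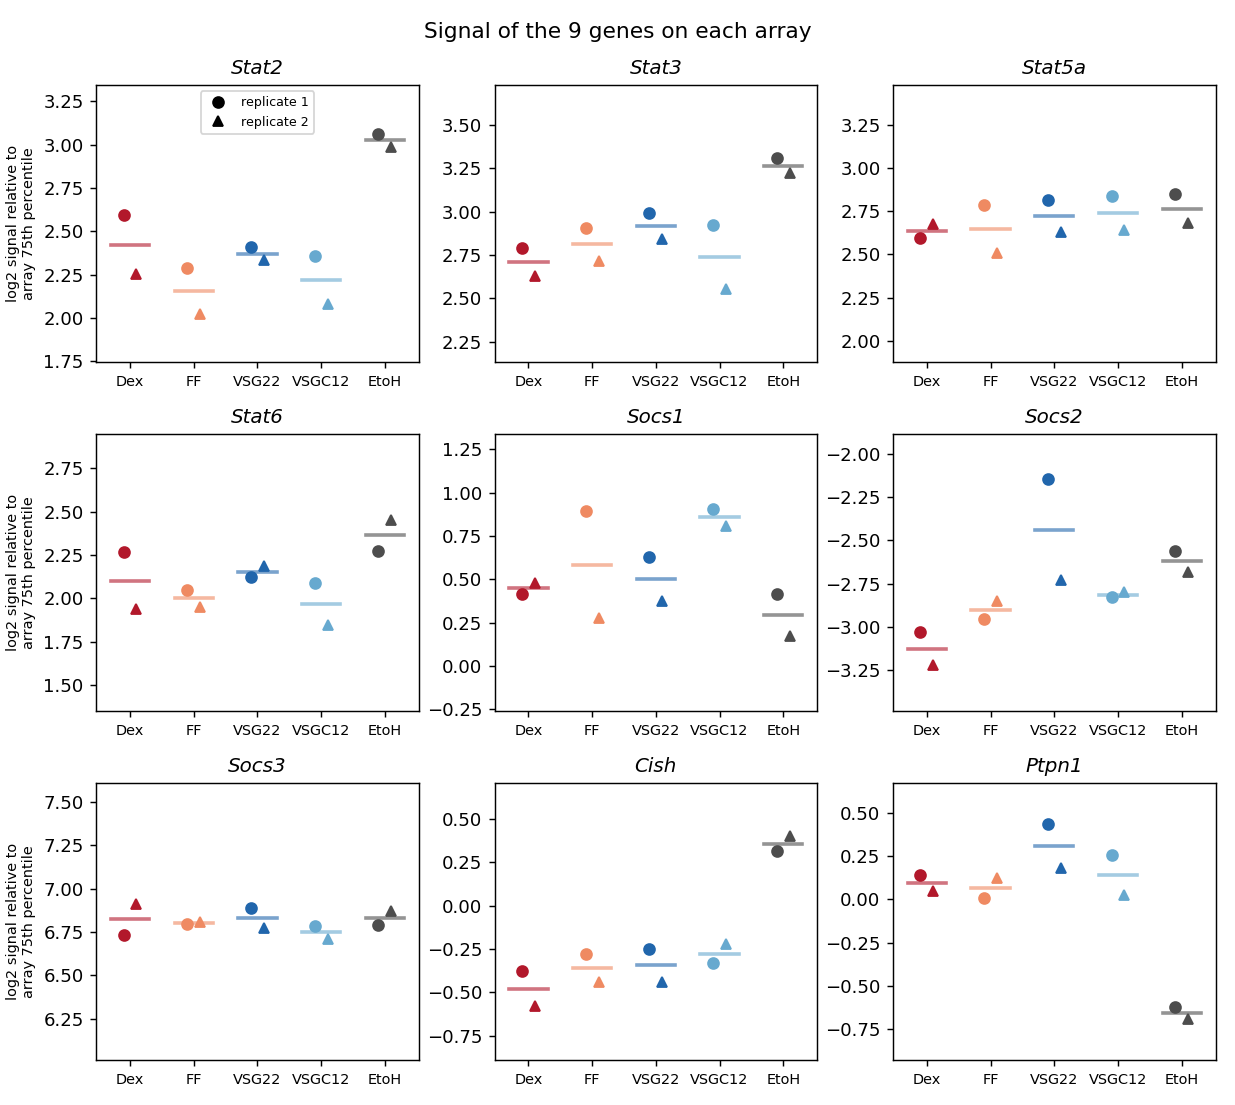
Log2 signal relative to the array's 75th percentile (vertical axes, each spanning its own range) for the 9 genes, by group, with a circle for replicate 1, a triangle for replicate 2 and a bar for their mean. All 8 glucocorticoid arrays lie below both EtoH arrays for Stat2, Stat3, Stat6 and Cish and above both for Ptpn1.

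STAT2 carries the signal of type I interferon, in a complex that includes IRF9. Its probe lies at mm9 chr10:127729834-127729893. The Stat2 signal was 2.59 and 2.25 in Dex, 2.29 and 2.02 in FF, 2.41 and 2.33 in VSG22, and 2.35 and 2.08 in VSGC12, against 3.06 and 2.99 in EtoH. Every glucocorticoid array was below both EtoH arrays. The mean of the 4 glucocorticoids was 1.66-fold lower than EtoH (log2 -0.73 ± 0.12, SE, 8 arrays against 2, limma adjusted p = 0.00335). The change was -0.60 in Dex (adjusted p = 0.0257), -0.87 in FF (0.00584), -0.66 in VSG22 (0.0190) and -0.81 in VSGC12 (0.00793), all from limma. Within slide 1 the mean change was -0.65 and within slide 2 it was -0.82. Replicate 1 was higher than replicate 2 in 5 of 5 groups. The call for the mean of the 4 was lost with the array median subtracted in place of the 75th percentile (-0.61, adjusted p = 0.0665). Of the single calls, that in Dex was lost without EtoH replicate 1 (0.112), EtoH replicate 2 (0.0853), VSG22 replicate 2 (0.0501) or Dex replicate 2 (0.109), and that in VSG22 without either EtoH array (0.0906 and 0.0730) or either VSG22 array (0.0739 and 0.0999).

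STAT3 answers to the IL-6 family and to IL-10, and in macrophages it carries the anti-inflammatory effect of IL-10. Its main probe, at mm9 chr11:100749598-100749657, is spotted 10 times on each array, and the SD among those spots was 0.014 to 0.070. The Stat3 signal was 2.79 and 2.63 in Dex, 2.91 and 2.72 in FF, 2.99 and 2.84 in VSG22, and 2.92 and 2.56 in VSGC12, against 3.31 and 3.23 in EtoH. All 8 glucocorticoid arrays were again below both EtoH arrays. The mean was 1.39-fold lower (log2 -0.47 ± 0.11, SE, 8 arrays against 2, limma adjusted p = 0.0147). The change was -0.56 in Dex (adjusted p = 0.0262), -0.46 in FF (0.0451) and -0.53 in VSGC12 (0.0285). In VSG22 it was -0.35 and missed the threshold (0.113), and VSG22 differed from Dex by 0.21 with an adjusted p of 0.497, so a difference between them is not shown. With slide as a block the VSG22 value was called (0.0304), and within slides the mean change was -0.41 and -0.54. A dimmer Stat3 probe at mm9 chr11:100759946-100760005, annotated in the files to another transcript, was well above background on 9 arrays and changed by -0.83 ± 0.10 (adjusted p = 0.000793 over probes).

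Each Stat3 call depended on some of the single arrays, and that in FF was the closest to the threshold. For the mean of the 4 the call was lost without EtoH replicate 1 (-0.43, limma adjusted p = 0.106) or EtoH replicate 2 (-0.51, 0.0737), with no filter on dim probes (0.0632) and with the array median subtracted (-0.35, 0.294). The call in FF was lost on leaving out any 1 of the 8 arrays other than VSGC12 (adjusted p 0.0518 to 0.187). Those in Dex and VSGC12 were lost without either EtoH array (0.116 and 0.0837 in Dex, 0.121 and 0.0913 in VSGC12) and without replicate 2 of their own group (0.110 in Dex, 0.128 in VSGC12). With 2 groups fitted alone the calls in Dex (0.0575) and VSGC12 (0.0712) were lost, and with no filter on dim probes those in Dex (0.106), FF (0.160) and VSGC12 (0.116). The direction was negative in every setting tried. A patch of local signal means that 3 or more of a spot's 24 neighbouring spots rose well above background in Dex alone. With probes in such patches left out, the dimmer probe stood in for the main one.

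STAT5A is used by GM-CSF, growth hormone and prolactin, among others. At its probe (mm9 chr11:100746373-100746432) the Stat5a signal ran from 2.51 to 2.84 with a median of 2.66 over the glucocorticoid arrays, against 2.85 and 2.68 in EtoH. The groups overlapped, with 5 of 8 glucocorticoid arrays below both EtoH arrays. The mean change was -0.08 with a 95% interval of -0.33 to 0.17 (limma adjusted p = 0.562), so a change as large as that of Stat2 lies outside the interval. Its sign turned with the array median subtracted (0.04).

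STAT6 is activated by IL-4 and IL-13 and drives the alternative activation of macrophages. Its brightest probe, at mm9 chr10:127097689-127097748, gave 2.27 and 1.94 in Dex, 2.05 and 1.95 in FF, 2.12 and 2.18 in VSG22, and 2.09 and 1.85 in VSGC12, against 2.28 and 2.45 in EtoH. Every glucocorticoid array lay below both EtoH arrays, Dex replicate 1 by the least. The mean change of Stat6 was -0.31 ± 0.11 (SE, 8 arrays against 2), with a 95% interval of -0.57 to -0.05, and did not pass after adjustment (limma adjusted p = 0.0595). Within slides it was -0.14 and -0.47. This probe lies on Dex replicate 1 in such a patch of local signal. A second Stat6 probe, at mm9 chr10:127095694-127095753 and well above background on all 10 arrays, gave 0.13 and 0.10 in Dex, -0.37 and -0.08 in FF, -0.10 and -0.24 in VSG22, and -0.33 and -0.52 in VSGC12, against -0.23 and -0.16 in EtoH. There the groups overlapped and the mean change was 0.02 ± 0.10 (adjusted p = 0.873 over probes). The 2 probes disagree, so no direction is given for Stat6. Another probe did not pass the filter. Without both Dex arrays the brighter probe was called (-0.32, adjusted p = 0.0316).

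SOCS1 blocks JAK kinases directly and is the main brake on interferon signals. At its probe (mm9 chr16:10783951-10784010) the Socs1 signal was 0.42 and 0.48 in Dex, 0.89 and 0.27 in FF, 0.63 and 0.37 in VSG22, and 0.91 and 0.81 in VSGC12, against 0.41 and 0.17 in EtoH. Of the 8 glucocorticoid arrays 6 were above both EtoH arrays, and both VSGC12 arrays stood clear of EtoH. The mean change was 0.30 ± 0.16 with a 95% interval of -0.08 to 0.69 (limma adjusted p = 0.169). In VSGC12 it was 0.56 ± 0.21 (adjusted p = 0.0735), which passed with slide as a block (0.0400) and in 4 other alternatives. The FF replicates differed by 0.62. Without FF replicate 2 the mean change was called (0.38, adjusted p = 0.0337), and without EtoH replicate 2 it was 0.18 (adjusted p = 0.583).

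SOCS2 restrains growth hormone signalling. Its main probe, at mm9 chr10:94875066-94875125 and spotted 10 times, was dim: 3 of the 10 spots were well above background on Dex replicate 1 and 7 on Dex replicate 2, 9 and 6 on the VSGC12 arrays, and all 10 on the FF, VSG22 and EtoH arrays. The Socs2 signal was -3.03 and -3.22 in Dex, -2.96 and -2.85 in FF, -2.15 and -2.73 in VSG22, and -2.83 and -2.80 in VSGC12, against -2.56 and -2.68 in EtoH. The Dex arrays were the lowest and VSG22 replicate 1 the highest. The mean change was -0.20 (95% interval -0.54 to 0.14, limma adjusted p = 0.294), and in Dex it was -0.51 (adjusted p = 0.0733). The change in Dex was called on leaving out VSG22 replicate 1 (adjusted p = 0.0212) or VSG22 replicate 2 (0.0228), with normexp background (0.0406) and with the percentile over detected probes (0.0441). A second Socs2 probe, at mm9 chr10:94875187-94875246, passed the filter only through FF and stood well above background in neither EtoH replicate, so no change is given for it. No direction is given for Socs2.

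SOCS3 binds the shared receptor chain of the IL-6 family and the G-CSF receptor, and is a target of STAT3. Its probe lies at mm9 chr11:117827480-117827539. The Socs3 signal ran from 6.71 to 6.91 with a median of 6.79 over the glucocorticoid arrays, against 6.79 and 6.87 in EtoH. The groups overlapped, with 2 of 8 arrays above both EtoH arrays and 4 below both. The mean change was -0.03 with a 95% interval of -0.20 to 0.14 (limma adjusted p = 0.779), and it turned to 0.09 with the array median subtracted. Its interval was the narrowest of the 9 and excludes changes of the size seen in Cish, Stat2 and Ptpn1.

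CISH, the first member of the SOCS family to be described, is a target of STAT5 and binds the receptors that activate it. At its probe (mm9 chr9:107204196-107204255) the Cish signal was -0.38 and -0.58 in Dex, -0.28 and -0.44 in FF, -0.25 and -0.44 in VSG22, and -0.33 and -0.22 in VSGC12, against 0.32 and 0.40 in EtoH. The groups were apart, with all 8 glucocorticoid arrays below both EtoH arrays. The mean was 1.65-fold lower (log2 -0.72 ± 0.09, SE, 8 arrays against 2, limma adjusted p = 0.00105). Cish fell by 0.84 in Dex (adjusted p = 0.00284), 0.72 in FF (0.00392), 0.70 in VSG22 (0.00456) and 0.63 in VSGC12 (0.00640). Within slides the mean change was -0.62 and -0.82. The call for the mean of the 4 was made in all 21 alternatives tried. With the array median subtracted it was close to the threshold (limma adjusted p = 0.0478). In that setting the calls in Dex (0.0767), FF (0.126), VSG22 (0.189) and VSGC12 (0.256) were lost.

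Ptpn1 encodes PTP1B, a phosphatase on the endoplasmic reticulum that acts on JAK2, TYK2 and the insulin receptor. At its measured probe (mm9 chr2:167804295-167804354) the Ptpn1 signal was 0.14 and 0.05 in Dex, 0.01 and 0.12 in FF, 0.44 and 0.18 in VSG22, and 0.26 and 0.03 in VSGC12, against -0.62 and -0.69 in EtoH. All 8 glucocorticoid arrays were above both EtoH arrays. The mean was 1.75-fold higher (log2 0.81 ± 0.10, SE, 8 arrays against 2, limma adjusted p = 0.000863). Ptpn1 rose by 0.75 in Dex (adjusted p = 0.00551), 0.72 in FF (0.00496), 0.96 in VSG22 (0.00164) and 0.79 in VSGC12 (0.00341). Within slides the mean change was 0.83 and 0.78. The call for the mean of the 4 was made in all 21 alternatives, and another probe of the gene did not pass the filter. With the array median subtracted the calls in Dex (limma adjusted p = 0.0670) and FF (0.0642) were lost.

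**Figure D2:**
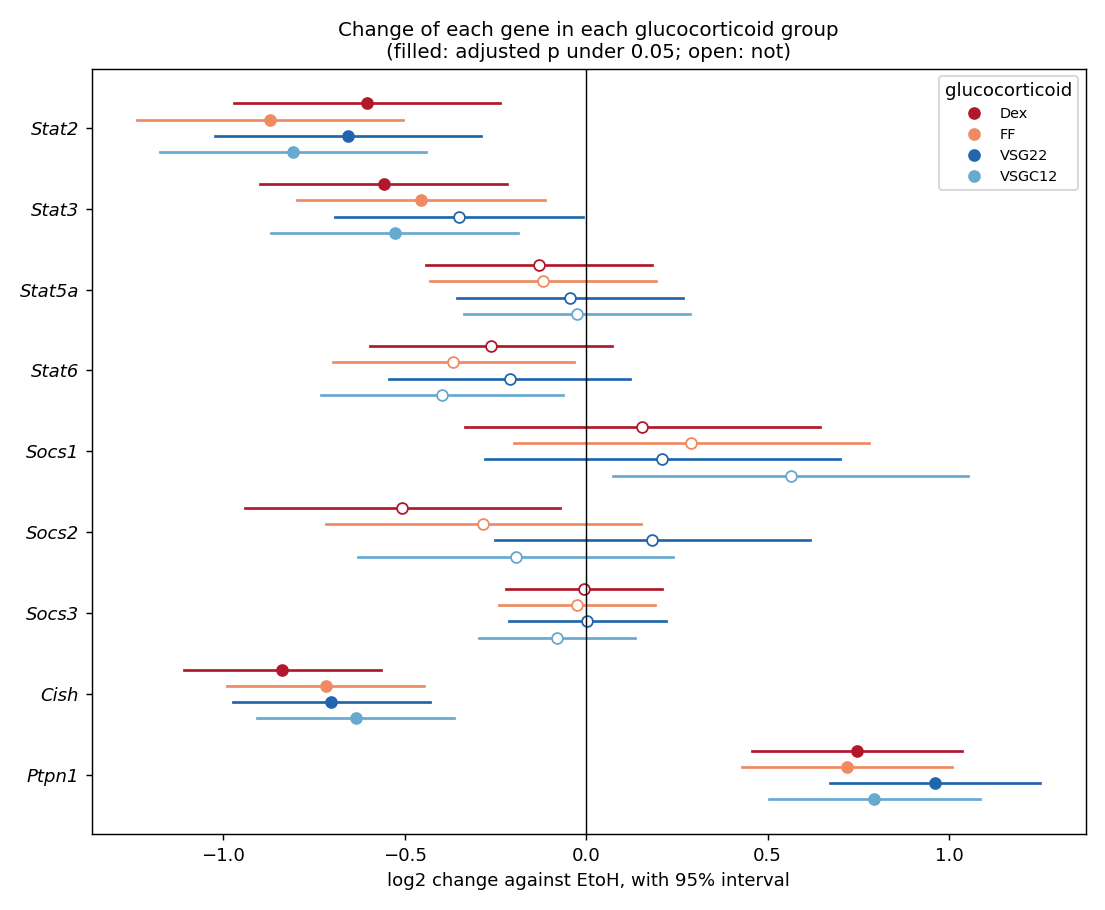
Log2 change of each gene against EtoH (horizontal axis) in each glucocorticoid group, with its 95% interval from the limma fit. Filled points passed the test: all 4 for Stat2, Cish and Ptpn1, and 3 of 4 for Stat3.

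By glucocorticoid, 4 of 9 genes were called in Dex, against 32.2% of all genes (1 higher and 3 lower, against 16.5% and 15.7%). In FF 4 of 9 were called, against 37.1% of all genes (1 higher and 3 lower, against 17.9% and 19.2%). In VSG22 3 of 9 were called, against 30.6% (1 higher and 2 lower, against 16.1% and 14.5%), and in VSGC12 4 of 9, against 35.5% (1 higher and 3 lower, against 17.2% and 18.3%). These 4 comparisons share the EtoH arrays, so their agreement is not independent. Subtracting the array median moves the median of all genes to 0.12 for the mean of the 4. In that setting none of the 9 was called in Dex or FF and 1 each in VSG22 and VSGC12. That 1 was Ptpn1. The share of all genes called in that setting was 11.3% in Dex, 13.8% in FF, 9.91% in VSG22 and 13.1% in VSGC12.

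The 4 glucocorticoids, given at the same dose and time, were then set against each other. Across 9 genes and 6 pairs, 0 of 54 differences passed limma's test, 2 had an unadjusted p under 0.05, and the lowest adjusted p was 0.149. Both were of Socs2: VSG22 exceeded Dex by 0.69 (95% interval 0.25 to 1.12, limma adjusted p = 0.149) and FF by 0.46 (0.03 to 0.90, adjusted p = 0.517). Over all genes the share called was 0.366% for FF against Dex, 0.549% for VSG22 against Dex, 0.394% for VSGC12 against Dex, 0.00555% for VSGC12 against FF, and 0% for VSG22 against FF and for VSGC12 against VSG22, where 9.47% and 7.15% of genes had an unadjusted p under 0.05. The moderated F-test over the 4 called 0 of 9 genes, against 0.255% of all genes, a share that was 0% without FF replicate 2 and 5.12% without Dex replicate 1. At an unadjusted p under 0.05 there was 1, Socs2 (limma adjusted p = 0.350).

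The intervals show how large a difference between glucocorticoids could have gone unseen. For Cish the 6 pair differences lay between 0.02 and 0.20, and their intervals reached from -0.26 to 0.47. For Ptpn1 they lay between -0.17 and 0.24 (intervals from -0.46 to 0.53), and for Stat2 between -0.27 and 0.22 (-0.63 to 0.58). Socs3 had the narrowest intervals, from -0.30 to 0.24. For Socs1 VSGC12 exceeded Dex by 0.41 (-0.08 to 0.90, adjusted p = 0.395). In order of the group means, low to high, Cish ran Dex, FF, VSG22, VSGC12 and EtoH, Stat2 ran FF, VSGC12, VSG22, Dex and EtoH, Stat3 ran Dex, VSGC12, FF, VSG22 and EtoH, and Ptpn1 ran EtoH, FF, Dex, VSGC12 and VSG22. Between neighbouring glucocorticoids in these orders no difference passed the test.

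**Figure D3:**
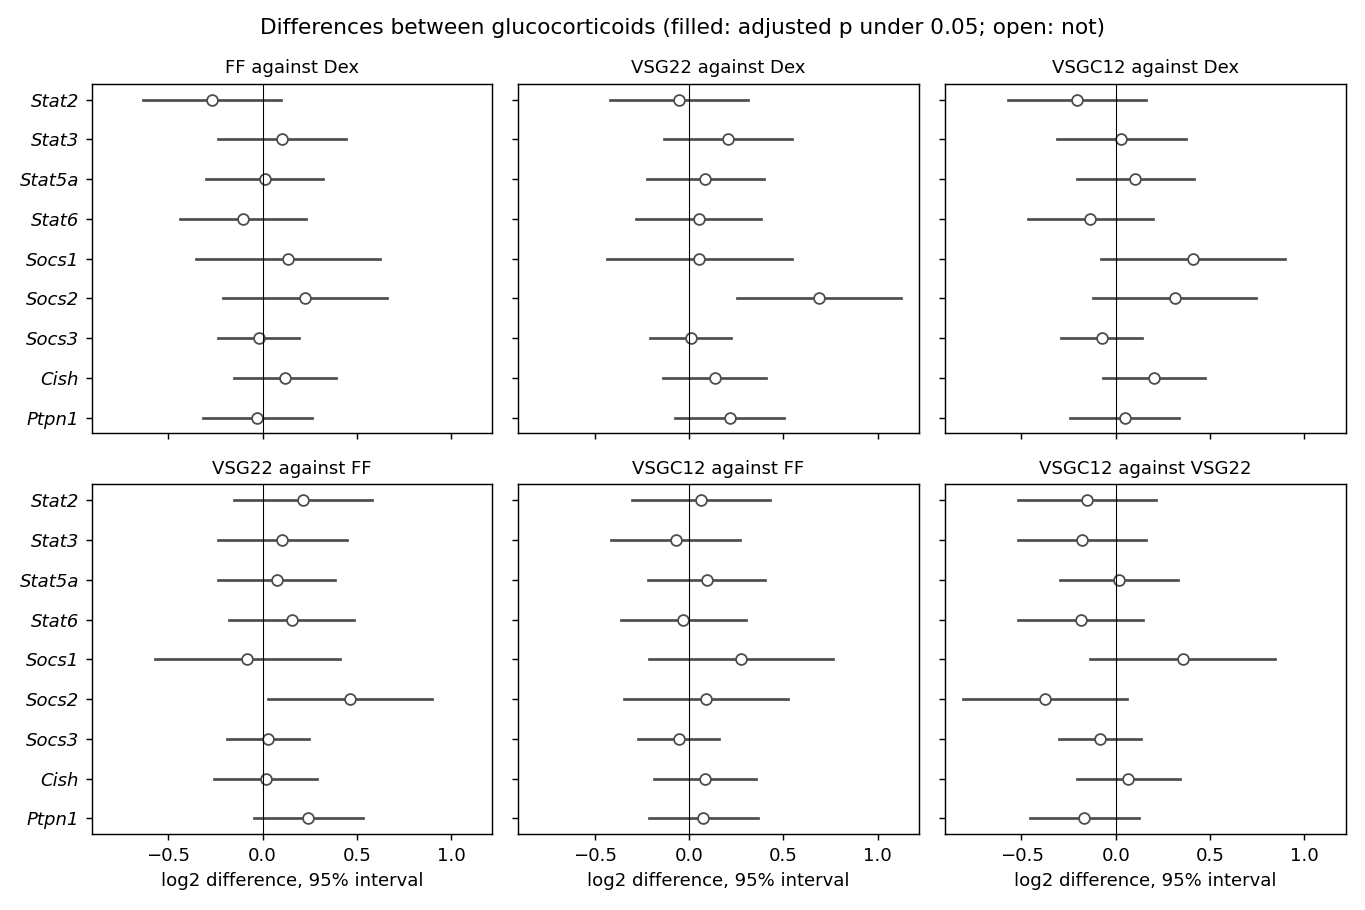
Difference in log2 signal between each pair of glucocorticoids (horizontal axes) for the 9 genes, with 95% intervals from the limma fit. All points are open, since 0 of 54 differences passed the test, and Socs2 in VSG22 against Dex lies farthest from 0, at 0.69.

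The other genes of the pathway were taken from lists by role, chosen with earlier results of these data known. Of 72 measured genes on these lists, 8 rose and 33 fell for the mean of the 4 glucocorticoids, which is 56.9% called, against 44.2% of all genes (21.6% higher and 22.5% lower). Their median change was -0.24, against -0.004 over all genes. The 33 include Ifnb1 and Mrc1, which passed the filter only through EtoH, where they were higher. By glucocorticoid 9 rose and 22 fell in Dex, where 16.5% of all genes were higher and 15.7% lower, and 8 and 31 in FF, against 17.9% and 19.2%. In VSG22 6 rose and 28 fell, against 16.1% and 14.5%, and in VSGC12 6 and 30, against 17.2% and 18.3%. The counts by role below are read against the 44.2% called for the mean of the 4. Among ligands 0 of 9 measured genes rose and 8 fell. Among the 8 is the interferon beta gene Ifnb1, which was not well above background on any glucocorticoid array. It passed the filter only through EtoH, so it is given as at least 3.21-fold lower and without a p-value. Il15 changed by -1.71, with a dim mean signal of -2.93 in the glucocorticoid groups and -1.22 in EtoH. The IL-6 family genes Lif and Osm changed by -1.38 and -0.99. Among receptors 2 of 19 rose and 6 fell, a share near that of all genes. The genes for the shared chain of the GM-CSF, IL-3 and IL-5 receptors and its close relative, Csf2rb and Csf2rb2, changed by -1.08 and -1.49, and probes of such similar genes may share signal. Epor, the erythropoietin receptor gene, changed by -1.17, with a dim mean signal of -2.64 in the glucocorticoid groups and -1.47 in EtoH. Il6ra rose by 0.52.

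Of 4 kinase genes 1 rose: Jak2, by 1.09 ± 0.33 (adjusted p = 0.0340), while Jak1, Jak3 and Tyk2 had values of -0.04, -0.19 and -0.21 and did not pass. By glucocorticoid 1 of the 4 kinase genes was called in Dex and 1 in FF, against 32.2% and 37.1% of all genes. In VSG22 and in VSGC12 it was 0 of 4, against 30.6% and 35.5%. Among other STATs and their partners 0 of 6 measured genes rose and 3 fell, the coactivator genes Ncoa1 (-0.63) and Ep300 (-0.47) and the STAT-interacting gene Nmi (-0.26). Stat5b, the close relative of Stat5a, had a value of 0.10 and Irf9 of -0.07, and neither passed. Among other inhibitors 0 of 14 rose and 5 fell. The shares called among kinases, partners and inhibitors are near or below the 44.2% of all genes, and nothing is read from them. Ptprc, the CD45 phosphatase gene that also stands among the macrophage markers, changed by -0.68, Usp18, which restrains the interferon receptor, by -0.65, Pias4 by -0.54 and the ubiquitin ligase gene Cbl by -0.43. The phosphatase genes nearest to Ptpn1 in role had values of 0.07 (Ptpn2), -0.01 (Ptpn6) and 0.03 (Ptpn11), and none passed.

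Known targets of STAT3, STAT5 and STAT6 were counted by factor, beside 21.6% of all genes higher and 22.5% lower. Of 8 STAT3 targets 1 rose and 5 fell: Nfil3 rose by 0.83, while Il1rn, which encodes the IL-1 receptor antagonist, changed by -1.23, the survival gene Mcl1 by -0.76 and Etv3 by -0.65. Of 6 STAT5 targets 3 rose and 3 fell: the cyclin gene Ccnd2 rose by 0.98 and Id1 by 0.50, and Pim1 and Bcl6 changed by -0.56 and -0.48. Of 6 measured STAT6 targets 1 rose and 3 fell: the lectin gene Clec10a rose by 0.78, Egr2 changed by -0.65 and Cd200r1, whose probe lies in such a patch in Dex, by -0.53, and Mrc1, the mannose receptor gene, was at least 1.65-fold lower. Mrc1, counted among the 3 STAT6 targets that fell, was not well above background on any glucocorticoid array and passed the filter only through EtoH. Many of these targets answer to other factors as well.

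**Figure D4:**
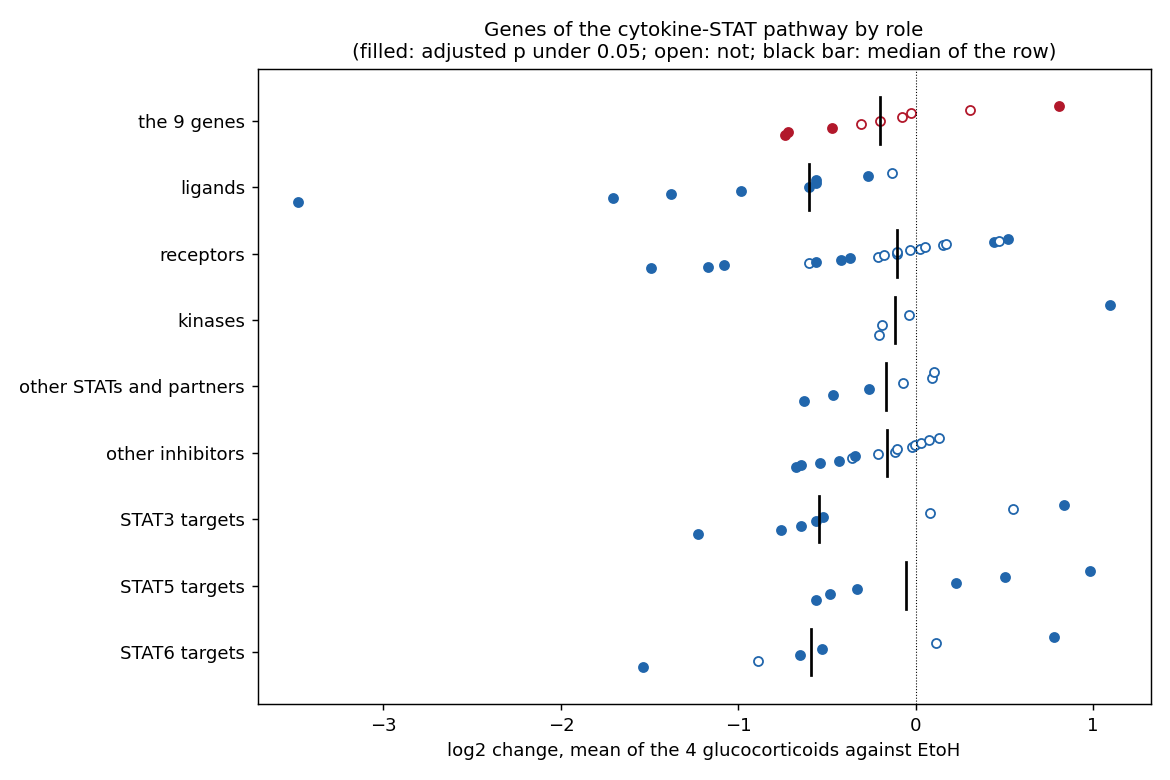
Log2 change for the mean of the 4 glucocorticoids against EtoH (horizontal axis) of the 9 genes and of the pathway's other measured genes, 1 point a gene, with rows by role and a black bar at each row's median. Filled points passed the test. Of the 9 measured ligands 8 fell, and the 6 targets of STAT5 lay on both sides of 0. Points for Ifnb1 and Mrc1 show the fitted value, not the bound given in the text.

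Promoter sequence from RefSeq (build GRCm38.p6, from 250 bases before to 50 after the start of a gene) was matched for 8 of the 9 genes, with 9 windows, and not for Socs2. The letters of 4 motifs were searched on both strands: the STAT inverted repeat with spacing 3 (TTCNNNGAA) and with spacing 4 (TTCNNNNGAA, the form STAT6 prefers), the core of the interferon-stimulated response element (TTTCNNTTTC) and the core of the glucocorticoid receptor element (ACANNNTGT). Of 32851 promoters 8.3% held the repeat with spacing 3, 6.95% that with spacing 4, 3.44% the interferon core and 6.85% the glucocorticoid core. Among the 8 genes matched, the repeat with spacing 3 was found in Cish and Socs3 and that with spacing 4 in Stat2. The interferon core was found in Stat2 and Socs1, and the glucocorticoid core in none of the 8. Stretches of 100 bases that hold the matches are printed because they set Cish and Stat2, which fell, beside Socs3 and Socs1, which were not called. Capitals mark the matches, and position 1 is the start of the gene.
Cish: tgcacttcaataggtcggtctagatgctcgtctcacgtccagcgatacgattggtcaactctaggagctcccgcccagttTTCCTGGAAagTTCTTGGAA
Socs3: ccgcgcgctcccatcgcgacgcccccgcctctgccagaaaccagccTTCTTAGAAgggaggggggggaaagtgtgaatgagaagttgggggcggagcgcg
Stat2: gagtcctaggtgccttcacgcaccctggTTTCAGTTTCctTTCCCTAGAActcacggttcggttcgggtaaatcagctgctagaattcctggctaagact
Socs1: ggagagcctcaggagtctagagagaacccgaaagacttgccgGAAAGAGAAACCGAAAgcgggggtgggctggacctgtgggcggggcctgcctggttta

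The Cish stretch (chr9:107296579-107296678, plus strand) holds the STAT repeat at positions 1 to 9 and 12 to 20, and the Socs3 stretch (chr11:117969467-117969566, minus strand) holds it at -154 to -146. The pattern TTCNNNGAA is what these matches share, and the letters between its ends differ. Cish fell in every glucocorticoid and the groups overlapped for Socs3, and the part of the repeat in either was not tested. The Stat2 stretch (chr10:128270248-128270347, plus strand) holds the interferon core at -222 to -213 and the repeat with spacing 4 at -210 to -201. The Socs1 stretch (chr16:10785562-10785661, minus strand) holds the interferon core on the other strand, at -83 to -74 and at -77 to -68, and these overlap. A match is a description of letters, and binding was not measured.

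Among 12256 other named genes well above background on all 10 arrays, those whose signal followed each gene most closely over the 10 arrays were listed. For Ptpn1 these were Selenoi (Pearson r = 0.988), Ifi30 (0.986) and Snx5 (0.985), and for Cish they were Vegfb (0.987), Ap3s1 (0.980) and Nck1 (0.980). For Stat2 they were Rab7, Akr1b10 and Fosl2 (each 0.986), and for Stat3 Socs7 (0.984), another SOCS-family gene that fell by 0.34, Crtc2 (0.979) and Camk2n2 (0.978). The highest r was 0.979 for Stat6 (Vrk3), 0.956 for Socs1 (Gm14625) and 0.955 for Stat5a (Wars2). For Socs3, which varied little, it was 0.778 (Mapre2). The 10 arrays share the gap between the glucocorticoid groups and EtoH, so these values are descriptions.

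**Figure D5:**
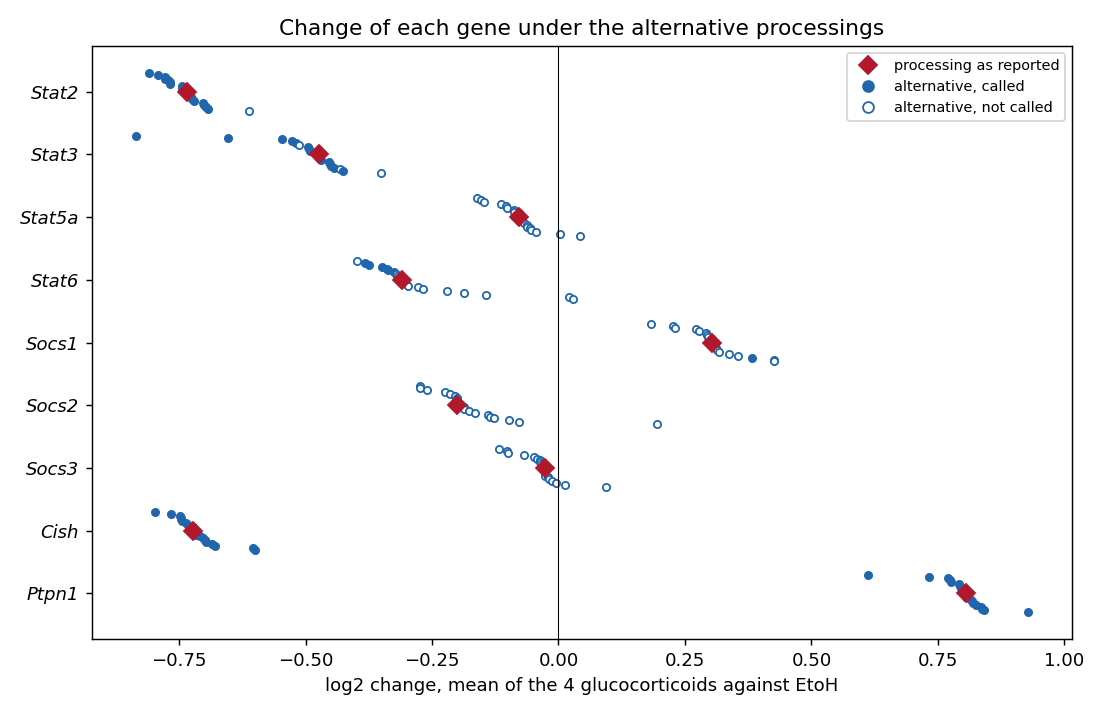
Log2 change for the mean of the 4 glucocorticoids against EtoH (horizontal axis) of each gene as reported (diamonds) and under 21 alternative processings (circles, filled where the adjusted p was under 0.05). Cish and Ptpn1 were called in all 21, Stat2 in 20 and Stat3 in 17, and the circles of Stat5a, Stat6, Socs2 and Socs3 lie on both sides of 0.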

How the data were processed

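Members and lists were chosen with earlier results of these data known. Per the file headers, the deposited files are Agilent Feature Extraction 10.7.3.1 output, with intensity values: a mean signal, a local background and a processed signal, background-subtracted and spatially detrended within the array, not scaled between arrays. Other columns are the software's flags. The submitters' processing notes name limma.

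Marked (non-uniform or outlying) spots were left out, log2 processed signals averaged per probe, and each array's 75th percentile over probes subtracted. A gene took its highest-mean probe that passed the filter, a probe counting as well above background where over 0.5 of its spots were. Probe positions are the files' own, on mm9. All 5 groups were fitted with limma 3.58.1 (R 4.3.3) by group alone, which left 5 residual degrees of freedom, with 1.81 from the prior. Tests were two-sided, adjusted by Benjamini-Hochberg over all genes within a comparison. Folds given as "at least" use the lowest signal well above background as the floor. The script was tested on simulated data.

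One pathway list is not reported here. The text names all 9 genes and up to 4 called genes of each pathway list (the largest changes, and the largest the other way). Stat5b, Irf9, Jak1, Jak3, Tyk2, Ptpn2, Ptpn6 and Ptpn11 were added after their values were seen. The alternatives were another scaling, background, filter, probe rule or spot rule, slide as a block, single arrays, the Dex arrays or patches left out, and 2 groups fitted alone. Leaving out spots in patches was chosen after seeing the data.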

Additional observations from a re-analysis of the deposited data

How the results depend on the processing

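For the mean of the 4 glucocorticoids, Cish (log2 -0.80 to -0.60) and Ptpn1 (0.61 to 0.93) kept their direction and call in 21 of 21 alternatives, Stat2 (-0.81 to -0.61) its call in 20 and Stat3 (-0.83 to -0.35, the first from its dimmer probe, which replaced the main one with probes in patches left out) in 17; Stat6 was called in 5 and Socs1 in 1. With 2 arrays a group, a single array decides calls near the threshold. Subtracting the array median moved the median of all genes to 0.12 and the share of higher among called genes to 70.3%, against 49.0%; the genes called fell to 3760 of the whole table (7961 as reported). Of the 9 genes it then left 2 called for the mean of the 4, 0 in Dex, 0 in FF, 1 in VSG22 and 1 in VSGC12. In that setting the SE for the mean of the 4 was also larger. It was 0.22 for Stat2 (0.12 as reported), 0.23 for Stat3 (0.11), 0.20 for Cish (0.09) and 0.22 for Ptpn1 (0.10). With no filter on dim probes, where more genes are tested, 4925 genes were called and 2 of the 9 in Dex; with 2 groups fitted alone, 2 of the 9 in Dex. Leaving out 1 array gave 3 to 5 of the 9 for the mean of the 4, 2 to 5 in Dex, 3 to 4 in FF, 2 to 3 in VSG22 and 3 to 5 in VSGC12, and 4717 (without EtoH replicate 2) to 8947 (without Dex replicate 1) genes of the whole table. Without EtoH replicate 1 it was 4893. By glucocorticoid these were 3115 to 6764 in Dex (5819 as reported), 3918 to 7453 in FF (6693), 2981 to 5787 in VSG22 (5518) and 3766 to 7012 in VSGC12 (6411), the lowest without EtoH replicate 1 in Dex, EtoH replicate 2 in FF and VSGC12, and VSG22 replicate 1 in VSG22. The F-test called 46 genes of the whole table, 0 (without FF replicate 2) to 972 (without Dex replicate 1) on leaving out 1 array, 2 with probes or spots in patches left out, 0 with no filter, 14 with the replicate block and 160 with the array median subtracted. The F-test and the 6 pairs called 0 of the 9 in every setting tried. The causes were not tested.

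Values that changed sign were all uncalled in both settings. With the array median subtracted these were Stat5a (0.043 for the mean, 0.077 in VSG22, 0.15 in VSGC12) and Socs3 (0.095 for the mean, 0.088 in Dex, 0.077 in FF, 0.090 in VSGC12). Socs3 in VSG22 was -0.024 with quantile normalization, -0.051 with the percentile over detected probes and -0.0095 with normexp background, which also gave 0.028 for Stat5a in VSGC12. The mean of a gene's probes, which takes in the second Socs2 probe, not well above background in EtoH, gave Socs2 0.19 for the mean, 0.16 in Dex and 0.31 in FF, and Stat6 0.026 in Dex. With probes in patches left out, Stat6 was read from its second probe and was 0.022 for the mean, 0.31 in Dex and 0.025 in VSG22. With spots in patches left out it was 0.029, 0.33 and 0.028, and Socs3 in Dex was 0.013. Leaving out 1 array gave ranges across 0 for Stat5a (-0.16 to 0.0036 for the mean, -0.26 to 0.019 in FF, -0.13 to 0.047 in VSG22, -0.12 to 0.072 in VSGC12) and Socs3 (-0.068 to 0.014 for the mean, -0.095 to 0.084 in Dex, -0.066 to 0.015 in FF, -0.055 to 0.062 in VSG22). It did the same for Socs1 in FF (-0.020 to 0.60) and Socs2 in VSG22 (-0.11 to 0.47).

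The replicate number follows the slide, each slide holding all 5 groups. Deviations correlated between groups with r of -0.03 to 0.33, over 0.1 in 4 of 10 group pairs, so the numbers were not taken to pair the samples. Stat2 and Stat3 were higher in replicate 1 in 5 of 5 groups, and the block moved the SE for the mean of the 4 to 0.075 (0.12 without it) for Stat2 and to 0.070 (0.11) for Stat3. With the replicate block 8338 genes were called, with 4 of the 9 genes for the mean of the 4, 4 each in Dex, FF and VSG22, and 5 in VSGC12. It added Stat3 in VSG22 and Socs1 in VSGC12.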
